A study of Mus musculus with 2 samples.

Results

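Multiciliated cells carry many beating cilia on their surface, and the genes described here are those of the program that builds them: transcription factors and cell cycle proteins that start it, and structural proteins of the motile axoneme. The members are 37 gene symbols chosen as such genes, taken as every probe set annotated with a single one of them, older and newer symbols matched by Entrez ID. Of the 37 symbols, 36 had a probe set on the array, and Mcidas had none here. Spag6l, which carried the name Spag6 before, was added, which gave 37 genes with 59 probe sets, of 18193 named genes in all. The study compared E18.5 mouse embryos, by RNA from the esophagus, between 1 sample labelled null for Myf5 and Myod (Myf5-/-:MyoD-/- in its title, strain BALB/c) and 1 wild-type BALB/c sample. Total RNA was hybridized to 1 Affymetrix array per genotype. The labels do not say how many embryos each RNA came from.

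A motile cilium is built on a ring of doublet microtubules around a central pair. Dynein arms on the doublets slide them past each other, radial spokes and the central apparatus set the rhythm, and nexin links turn the sliding into bending. In multiciliated cells Mcidas and Ccno drive the multiplication of centrioles that become basal bodies, while Foxj1 and the RFX factors switch on the axonemal genes. The lining of the mouse esophagus carries ciliated cells in fetal life, which are replaced by stratified squamous epithelium.

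Values are MAS5 signals, Affymetrix's linear summary of a probe set, as scaled by the authors. With 1 array per genotype there is no replicate, no error between animals and no test, and each ratio compares 2 RNA samples. A low-signal limit of 489, the median of all probe sets of both arrays other than array controls, stands in for detection calls. Lower signals were set to the limit, and log2 ratios are always null-labelled over wild type. A gene under the limit on both arrays was treated as not measured, and a gene under it on 1 array has only a bound, written "at least". The error these arrays give is how far the probe sets of a gene differ in log2 ratio, a pooled SD of 0.56 over 5455 genes, and variation between embryos is not in it. The label of the null array was checked with its targets. Myf5 read 496 on the null-labelled and 4072 on the wild-type array, while Myod1 read 1698 (null-labelled) and 2001 (wild type), so the array is called null-labelled throughout. The labels do not place the Myod1 probe set relative to the deletion, so it checks nothing. Of the 10 striated muscle markers, all 10 passed 2-fold in the lower direction. Eif2s3y, a Y-linked gene, read 2402 on the null-labelled and 10.6 on the wild-type array, while Xist, the X-inactivation RNA, was high on both, with 24254 (null-labelled) and 42465 (wild type) at its brightest probe set. The labels used here do not give the sex of the embryos, and sex-linked differences cannot be told apart from genotype.

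The multiciliated cell genes read close to the low-signal limit in this tissue, and they went both ways. Of the 37 genes, 27 were measured and 10 lay under the limit on both arrays. At their probe set with the highest mean signal, 24 genes reached the limit on the null-labelled array and 15 on the wild-type array. These shares, 64.9% on the null-labelled and 40.5% on the wild-type array, were below those of all 18193 named genes taken the same way, 69.3% on the null-labelled and 60.8% on the wild-type array. The gap between the arrays depended on scaling. With quantile normalization, and also with loess, 21 members reached the limit on the null-labelled and 22 on the wild-type array. For all named genes the shares were then 64.5% (null-labelled) and 65.4% (wild type) with quantile normalization. Of the 27 measured genes, 4 passed 2-fold upward on the null-labelled array (Lrrc23, Myb, Hydin and Spag16) and 1 passed it downward (Rsph1). Among the 13315 measured genes of the array, 6.01% were at least 2-fold higher and 5.36% at least 2-fold lower.

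**Figure D1:**
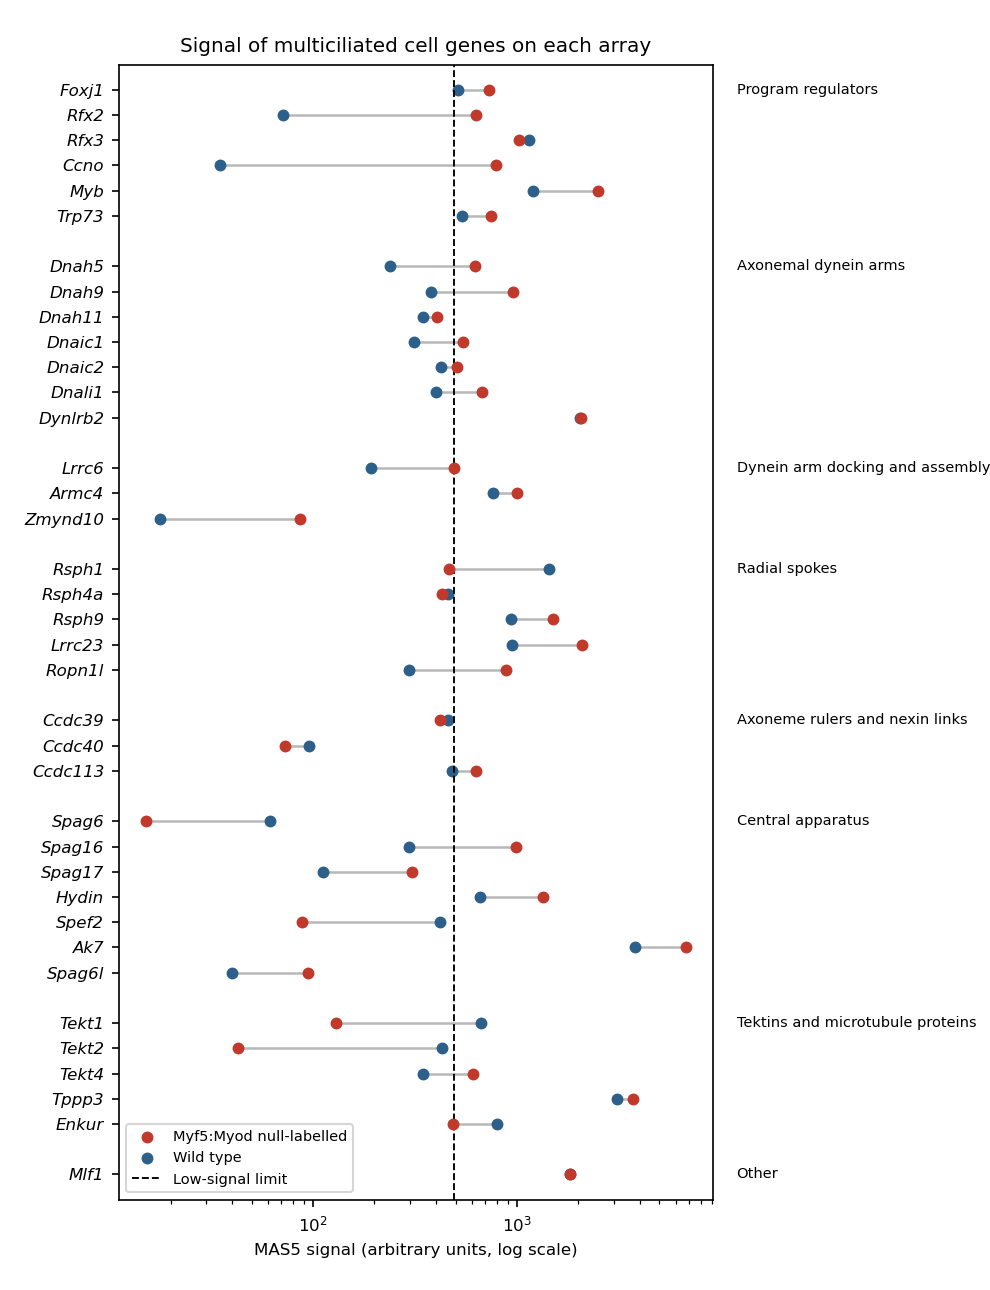
MAS5 signal (horizontal, log scale) of each multiciliated cell gene at its probe set with the highest mean signal, on the null-labelled array (red) and the wild-type array (blue), grouped by role, with the low-signal limit as a dashed line. Signals are as deposited: on the null-labelled array 24 genes reached the limit and on the wild-type array 15 did. With quantile normalization or loess these counts were 21 and 22. As deposited, the null-labelled signal lies to the right of the wild-type one for 26 genes and to its left for 11.

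The size of the group's shift depended on how the arrays were scaled. As deposited, 22 of 27 measured genes had a ratio above 0, with a median log2 ratio of 0.36, against 56.6% of all measured genes and a median of 0.09. With a loess fit of the ratio on signal, 17 of 29 measured genes lay above 0, with a median of 0.05, against 48.6% and a median of -0.02 for all genes. Quantile normalization gave a median of 0.08. Low signals in general read higher on the null-labelled array as deposited: among all genes with a mean signal under 1000 the median was 0.29, and it was -0.07 for those at 3000 and over, ranges set after the data were seen. Of the 27 measured members, 19 had a mean signal under 1000, with a median of 0.36. The ratio was a bound because the wild-type signal was under the limit for 12 of the 27, which is 44.4% against 16.9% of all measured genes. As deposited, such a bound can only point upward, so the 22 above 0 and the 56.6% of all genes are not a like comparison. For 3 of the 27 the null-labelled signal was under the limit (11.1%, against 5.35% of all measured genes), and those bounds can only point downward.

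**Figure D2:**
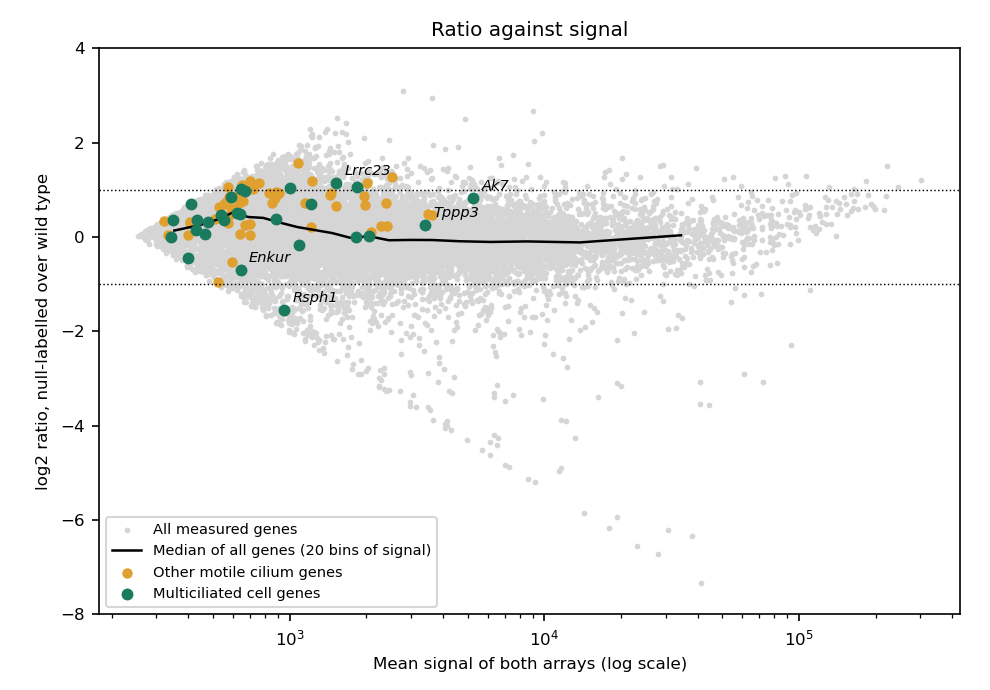
Log2 ratio, null-labelled over wild type (vertical), against mean signal (horizontal, log scale) for all measured genes (grey), with their median in 20 bins of signal as a line, other motile cilium genes (orange) and multiciliated cell genes (green). Dotted lines mark 2-fold, and most green points lie at low signal, where the median of all genes is above 0.

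Apart from Myb and Rfx3, the regulators of the program read near or under the limit on at least 1 array. Of the 6 measured, 1 was shown to be at least 2-fold apart, against 11.4% of all measured genes. Foxj1, the forkhead factor of motile ciliogenesis, read 729.5 on the null-labelled and 516 on the wild-type array, both just above the limit. Its log2 ratio of 0.50 was 0.029 with quantile normalization and 0.0043 with loess. Trp73, the p53 family member that acts upstream of Foxj1, read 745 (null-labelled) and 535 (wild type), a ratio of 0.48 as deposited that was -0.0041 with loess. These differences are smaller than the SD of 0.56 between probe sets.

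Ccno, the cyclin O needed for basal body amplification, read 788 on the null-labelled and 35.1 on the wild-type array. Because the wild-type signal is under the limit, the ratio is a bound, at least 1.61-fold higher. Such a bound can only point upward before centring. The 7 alternatives that gave a value were all above 0, which is therefore little check on it. Rfx2, an X-box binding factor of ciliated cells, had 1 of 4 probe sets at the limit, with 627 (null-labelled) and 71.3 (wild type), a bound of at least 1.28-fold higher. Rfx3, its relative, had probe sets that went opposite ways. Its brighter probe set read 1020.1 on the null-labelled and 1152 on the wild-type array, and its second 620.0 (null-labelled) and 248 (wild type).

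Myb, which promotes early ciliated cell differentiation and is also a factor of blood progenitors, was the regulator past 2-fold. It read 2502 on the null-labelled and 1193 on the wild-type array, 2.10-fold higher. Its other probe sets read 1685 (null-labelled) and 1061 (wild type), and 658 (null-labelled) and 361 (wild type), so all 3 were higher on the null-labelled array. The probe set past 2-fold is of the _x_at type, whose probes can bind other transcripts too. Without probe sets of that type, and by the median of the 3, the log2 ratio was 0.67, so Myb was no longer past 2-fold. It was past 2-fold in 4 of the 8 alternatives to scaling, limit and probe set choice, with 1.02 under loess, and under it also after centring on the median of all genes (0.98) and with the limit at the 75th percentile (0.84). White blood cell markers did not move one way. Of 12 on the array, 7 were measured, 2 at least 2-fold higher and 1 lower, with a median log2 ratio of 0.0090. Ptprc, the leukocyte surface phosphatase CD45, read 5010.0 (null-labelled) and 585 (wild type), and Lyz2, a lysozyme of myeloid cells, 1323 (null-labelled) and 601 (wild type). The macrophage genes C1qb and Adgre1 were lower, with 1607 (null-labelled) and 3308 (wild type) for C1qb, and 2361 (null-labelled) and 3259 (wild type) for Adgre1. Another C1qb probe set read 2272 (null-labelled) and 2589 (wild type), and both are of the _x_at type. Adgre1 lies within the SD between probe sets. Csf1r, singled out after its values were seen, read 14108 (null-labelled) and 14020 (wild type). With quantile normalization 1 of 8 measured markers was at least 2-fold higher and 0 lower. The part of such cells in the Myb result was not tested.

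RFX factors bind the X-box, a palindromic element found before many cilium genes, so the promoters of the members were searched for it. The window was 250 bases before to 50 after the transcript start, from RefSeq (GRCm38.p6), and 32 genes had an entry, 31 of those on the array and Mcidas. Armc4, Foxj1, Lrrc6, Rsph1, Rsph4a and Tppp3 had no entry used here. The X-box was written as GTNNCC, then any 3 bases, then GNAAC, and searched on both strands. It was found for 7 of the 32 genes (21.9%), against 2.49% of 27025 genes and 2.17% of 32851 promoter windows. Its arm GTTGCC alone, also on both strands, was found for 21 of the 32 (65.6%), against 14.1% of genes, and it lay within the X-box match in 5 genes. These are matches of letters, not sites shown to be bound. The X-box matches are shown to let them be set side by side, each on the strand that reads 5′ to 3′, with the fixed letters of the motif in capitals.
Ccno (chr13:112987583-112987596, minus strand): GTcaCCgtgGcAAC
Spag16 (chr1:69826867-69826880, plus strand): GTtgCCgtaGtAAC
Hydin (chr8:110266956-110266969, minus strand): GTtgCCacaGcAAC
Enkur (chr2:21205364-21205377, minus strand): GTttCCttaGcAAC
Zmynd10 (chr9:107547304-107547317, minus strand): GTcgCCatgGaAAC
Tekt4 (chr17:25471430-25471443, plus strand): GTgtCCtggGaAAC
Tekt4 (chr17:25471590-25471603, minus strand): GTtgCCtaaGgAAC
Spag6l (chr16:16829316-16829329, plus strand): GTctCCaggGcAAC

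Genes with a match differed in what the arrays showed. Ccno, Spag16, Hydin and Tekt4 read higher on the null-labelled array, Enkur lower, and Zmynd10 and Spag6l lay under the limit on both arrays. The windows of Hydin and Lrrc23, at least 2-fold higher as deposited, and of Enkur, which read lower, are given in the direction of the gene, with the matches to either motif in capitals.
Hydin (chr8:110266727-110267026, plus strand): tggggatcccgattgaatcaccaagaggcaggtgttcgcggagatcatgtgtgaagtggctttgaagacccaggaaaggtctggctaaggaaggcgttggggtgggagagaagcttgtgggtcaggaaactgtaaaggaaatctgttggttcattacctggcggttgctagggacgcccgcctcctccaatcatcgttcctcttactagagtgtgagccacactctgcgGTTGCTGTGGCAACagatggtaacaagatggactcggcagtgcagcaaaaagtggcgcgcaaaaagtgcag
Lrrc23 (chr6:124779678-124779977, minus strand): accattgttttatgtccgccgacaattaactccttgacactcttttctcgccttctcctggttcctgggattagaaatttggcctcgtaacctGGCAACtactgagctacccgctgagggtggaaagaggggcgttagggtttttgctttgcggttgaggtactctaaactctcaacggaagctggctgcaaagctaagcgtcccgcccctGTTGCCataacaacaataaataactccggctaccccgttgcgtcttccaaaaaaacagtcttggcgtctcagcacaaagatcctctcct
Enkur (chr2:21205316-21205615, minus strand): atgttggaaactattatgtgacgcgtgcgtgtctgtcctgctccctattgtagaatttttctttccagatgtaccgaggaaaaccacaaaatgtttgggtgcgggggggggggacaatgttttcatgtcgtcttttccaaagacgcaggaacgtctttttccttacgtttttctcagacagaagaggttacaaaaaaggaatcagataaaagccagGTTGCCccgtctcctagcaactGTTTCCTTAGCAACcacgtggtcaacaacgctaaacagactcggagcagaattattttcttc
The X-box match of Hydin lies 21 to 8 bases before the start, and that of Enkur reaches from 12 bases before it to just after it. Lrrc23 has no X-box match and 2 matches to GTTGCC, on opposite strands, and Tekt1, lower on the null-labelled array, has 2 as well.

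Among the dynein arm genes, 6 of 7 were measured and none was shown to be 2-fold apart, 5 of them by a bound that leaves the size of the difference unknown. Dynlrb2, a dynein light chain of the roadblock type, was above the limit on both arrays and read nearly the same, 2069 on the null-labelled and 2044 on the wild-type array, a log2 ratio of 0.02 that was -0.07 after centring. Every other measured gene of the group had only a bound, since the wild-type signal was under the limit. Dnah9, a heavy chain of the outer arm, read 957 on the null-labelled and 378 on the wild-type array, at least 1.96-fold higher, and its second probe set 358 (null-labelled) and 19.6 (wild type), both under the limit. Dnah5, the other main outer arm heavy chain, read 626 (null-labelled) and 238 (wild type), at least 1.28-fold higher. Both passed 2-fold once the limit was lowered to the 25th percentile, with log2 ratios of 1.34 for Dnah9 and 1.40 for Dnah5.

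The intermediate chains and a light intermediate chain sat at the limit. Dnaic1 read 541 on the null-labelled and 314 on the wild-type array, and Dnali1, a light intermediate chain of the inner arm, 675 (null-labelled) and 399.7 (wild type). Dnaic2 read 508 (null-labelled) and 426 (wild type), a bound of 0.05 that was negative after centring, quantile normalization and loess (-0.14). Dnah11, a further outer arm heavy chain, was under the limit on both arrays, at 406 (null-labelled) and 346 (wild type). Of the docking and assembly genes, 1 of 3 was above the limit on both arrays. Armc4, of the outer arm docking complex, read 1001 (null-labelled) and 767 (wild type), a ratio of 0.38 that was 0.07 with loess. Lrrc6, an assembly factor in the cytoplasm, read 492 (null-labelled) and 193 (wild type), at the limit. Zmynd10, its partner in assembly, read 85.9 (null-labelled) and 17.8 (wild type) and was not measured.

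With signals held at the limit, the largest ratios among the members, in opposite directions, were both of radial spoke genes. Rsph1, a spoke head protein, read 465 on the null-labelled and 1434 on the wild-type array, at least 2.93-fold lower. It was lower in all 8 alternatives to scaling, limit and probe set choice and at least 2-fold lower in 7 of them, the exception being the limit at the 75th percentile, a signal of 1399, where its bound was -0.04. Lrrc23, a spoke protein, read 2095 on the null-labelled and 950.3 on the wild-type array, 2.20-fold higher, and stayed at least 2-fold higher in 7 of these 8 alternatives. In the remaining alternative, that same limit, its bound was 0.58. Each had a single probe set, so no second probe set checks either. Both ratios exceed the SD of 0.56 between probe sets.

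The other spoke genes were in between. Rsph9, a spoke head protein, read 1503 on the null-labelled and 931 on the wild-type array, 1.61-fold higher. Ropn1l, of the spoke stalk, read 881 (null-labelled) and 295 (wild type), at least 1.80-fold higher, and its second probe set, at 376 (null-labelled) and 127 (wild type), was under the limit on both arrays. Rsph4a, another head protein, read 427 (null-labelled) and 457 (wild type) and was not measured. Rsph1 and Rsph9 thus pointed opposite ways within the spoke head.

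Genes of the nexin links and the axonemal ruler were mostly not measured. Ccdc39, which with Ccdc40 sets the spacing of spokes and arms along the doublet, read 419.9 on the null-labelled and 457 on the wild-type array, and Ccdc40 72.9 (null-labelled) and 95.6 (wild type). Ccdc113 read 627 (null-labelled) and 481 (wild type), a bound of 0.36 that was -0.16 with loess. No statement on the direction of this group can be drawn from values at the limit.

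Of 7 central apparatus genes, 3 were measured (Hydin, Spag16 and Ak7), and these read higher on the null-labelled array. Spag16 was measured only through its null-labelled signal, so its bound could only point upward. Hydin, a large protein of the central pair projection whose loss causes hydrocephalus in mice, read 1341 on the null-labelled and 658 on the wild-type array, 2.04-fold higher. Its second probe set read 652 (null-labelled) and 111 (wild type), a bound of 0.41 on the log2 scale. Spag16 read 988 (null-labelled) and 295 (wild type), at least 2.02-fold higher, with its 3 other probe sets under the limit on both arrays. Hydin and Spag16 dropped under 2-fold after centring (0.94 and 0.93), with quantile normalization (0.77 and 0.88) and with loess (0.75 and 0.77). By the median of its 2 probe sets Hydin was at 0.72.

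Ak7, an adenylate kinase with a place in motile cilia, was well above the limit. It read 6729 on the null-labelled and 3800.0 on the wild-type array, 1.77-fold higher, and its log2 ratio of 0.82 lay between 0.74 and 0.94 in the same 8 alternatives. Spag6, Spag6l, Spag17 and Spef2 were under the limit on both arrays. Spef2 read 88.5 on the null-labelled and 420.3 on the wild-type array, Spag17 306 (null-labelled) and 111 (wild type), Spag6 15.1 (null-labelled) and 61.5 (wild type), and Spag6l 94.3 (null-labelled) and 40.2 (wild type). A second Spef2 probe set went the opposite way, with 453 (null-labelled) and 11.1 (wild type), so no direction is given for genes under the limit.

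The tektins, filaments in the wall of the doublet microtubules, and Enkur, a protein inside the doublet, held 2 of the 5 measured members with a ratio below 0. Tekt1 read 129 on the null-labelled and 669.6 on the wild-type array, at least 1.37-fold lower. Enkur read 485 (null-labelled) and 799 (wild type), at least 1.63-fold lower, and stayed between -0.98 and -0.70 in the 7 alternatives that gave a value. Tekt2 read 43.0 (null-labelled) and 428 (wild type), under the limit on both arrays, and with the limit at the 25th percentile (168) it and Tekt1 were each at least 2-fold lower. Tekt4 went the other way, with 612 (null-labelled) and 347 (wild type), at least 1.25-fold higher. Of these 4, Tekt1 and Enkur were lower and Tekt4 higher on the null-labelled array, each by a bound, and Tekt2 was not measured. All 4 lay near or under the limit on at least 1 array.

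A pair of members that other tissues also express was well above the limit and close on both arrays. Tppp3, a tubulin polymerization protein, read 3689 on the null-labelled and 3101 on the wild-type array, 1.19-fold higher. Mlf1, the myeloid leukemia factor enriched in ciliated cells, read 1819 (null-labelled) and 1830.3 (wild type). Both lie within the spread between probe sets.

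The genes chosen as markers of the cell type itself gave a weak reading. Of Foxj1, Ccno, Dnah5, Dnah9, Rsph1 and Tekt1, the null-labelled array had Foxj1, Ccno, Dnah5 and Dnah9 at or above the limit, and the wild-type array Foxj1, Rsph1 and Tekt1. Only Foxj1 was above it on both. The label multiciliated is therefore kept for the gene list, and the arrays do not show by these markers how many such cells either esophagus held. In whole tissue, a difference in the number of ciliated cells and a difference in these RNAs per cell cannot be told apart.

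A second list of motile cilium genes, chosen with earlier results of these data known and not by how its genes moved, was set beside the members. Of 67 genes on the array, 52 were measured, 9 at least 2-fold higher (17.3%) and 0 lower, with 50 above 0 and a median log2 ratio of 0.67. Among all measured genes 6.01% were at least 2-fold higher and 56.6% lay above 0, with a median of 0.09. For 23 of the 52 (44.2%, against 16.9% of all measured genes) the wild-type signal was under the limit. Such a bound can only point upward. The median of the list was 0.51 with quantile normalization, where 41 of 50 lay above 0, and 0.49 with loess, where 40 of 49 did. Of all measured genes 51.6% lay above 0 with quantile normalization and 48.6% with loess. With loess 3 of the 49 were 2-fold higher (6.12%) and 1 was lower (2.04%), against 3.43% and 7.16% of all measured genes. The 15 genes with a mean signal from 1000 to 3000 were all above 0 as deposited, with a median of 0.72, against 0.04 for all genes of that range, and it was 0.73 with loess.

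Pifo, a ciliary protein first described at the base of primary cilia, read 1609 on the null-labelled and 545 on the wild-type array, 2.95-fold higher. Drc3, of the nexin-dynein regulatory complex, read 3567 (null-labelled) and 1482 (wild type), 2.41-fold higher, and its second probe set 819.6 (null-labelled) and 379 (wild type). Drc1, of the same complex, read 1119 (null-labelled) and 277 (wild type), at least 2.29-fold higher. Odf3b read 1699.8 (null-labelled) and 743 (wild type) at its brighter probe set, 2.29-fold higher, and 1511 (null-labelled) and 385 (wild type) at its second. The lowest log2 ratio of these 4, as deposited, with quantile normalization or with loess, was 0.96 (Drc1 with loess). They were named for the largest ratios of the list as deposited, so their size is no measure of the list. Ccdc114, singled out after its values were seen, went the other way, with 94.4 (null-labelled) and 955 (wild type). Its log2 ratio was a bound of -0.97 as deposited and -1.33 with loess.

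**Figure D3:**
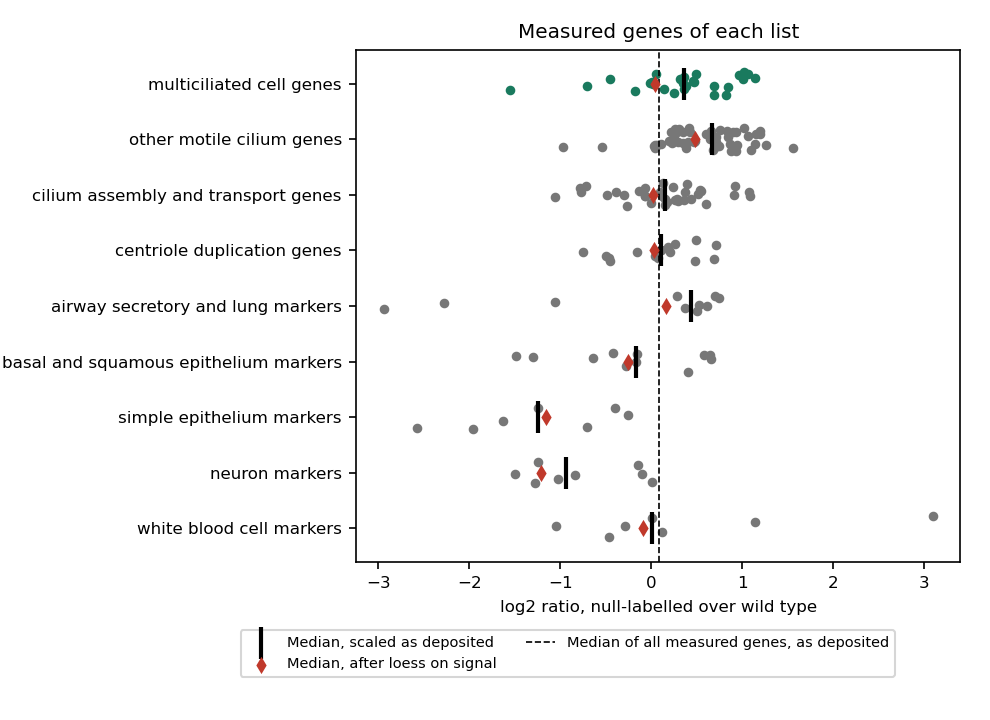
Log2 ratios, null-labelled over wild type (horizontal), for the measured genes of each list, each point a gene, with the median as deposited (black bar) and after loess on signal (red diamond), and the median of all measured genes as a dashed line. The other motile cilium genes have medians of 0.67 and 0.49, the multiciliated cell genes 0.36 and 0.05, and striated muscle markers are left out for scale.

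Genes that every ciliated cell type uses showed less. Of 35 measured genes of cilium assembly and transport, 2 were at least 2-fold higher and 1 lower, with a median of 0.16 as deposited and 0.02 with loess. Wdr19 and Dync2h1, both of retrograde transport along the cilium, read 2426 on the null-labelled and 1140.0 on the wild-type array, and 2277 (null-labelled) and 1082 (wild type). Ift172, of the anterograde complex, read 239 (null-labelled) and 1015 (wild type), at least 2.08-fold lower. Kif3a, the kinesin motor, read 4350 (null-labelled) and 2285 (wild type) at its brightest probe set, 1.90-fold higher, while 2 of its other probe sets were lower.

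None of 16 measured centriole duplication genes was shown to be 2-fold apart, with 11 above 0 and a median of 0.11. E2f5 had a brightest probe set of 48455 on the null-labelled and 81176 on the wild-type array, with a second of 2160.2 (null-labelled) and 2341 (wild type). A further E2f5 probe set went the other way, with 640 (null-labelled) and 424 (wild type). Cntrob read 2851 (null-labelled) and 1765 (wild type), E2f4 803 (null-labelled) and 438 (wild type), and Cep152 763 (null-labelled) and 541 (wild type). Each was higher on the null-labelled array as deposited. With loess the log2 ratio was 0.69 for Cntrob and 0.36 for E2f4, and only 0.022 for Cep152. E2f4 and E2f5 are cofactors of Mcidas in centriole amplification and also act in the cell cycle of other cells.

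Markers of epithelial cells that could lie near ciliated cells were set beside the members. Of 8 simple epithelium markers, 7 were measured, 4 at least 2-fold lower and 0 higher, with a summed signal of 29479 on the null-labelled and 86468 on the wild-type array. Krt7 read 3396 (null-labelled) and 20251 (wild type), Cldn4 2662 (null-labelled) and 10380.0 (wild type), Krt19 9856 (null-labelled) and 30369 (wild type), and Krt8 7223 (null-labelled) and 17122 (wild type). All 4 are genes of simple or luminal epithelium. Their lower signal stood beside a lower Rsph1, Tekt1 and Enkur and a higher Lrrc23, Hydin and Ak7, and its part in any member's value was not tested.

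Airway genes were examined because the trachea lies next to the esophagus and carries multiciliated cells. Of 15 airway secretory and lung markers, 10 were measured, 3 at least 2-fold lower (30%, against 5.36% of all measured genes) and 0 higher. The other 7 lay above 0, 4 of them as bounds that could only point upward. The median log2 ratio was 0.44 as deposited and 0.16 with loess. Their summed signal was 124210 on the null-labelled and 105577 on the wild-type array. Cyp2f2 makes up most of both sums, with 112806 (null-labelled) and 78461 (wild type), and was singled out after its values were seen. Scgb3a2, a secretoglobin, read 692 (null-labelled) and 5302 (wild type), 7.66-fold lower, Ltf, lactoferrin, 3403 (null-labelled) and 16481 (wild type), 4.84-fold lower, and Scgb3a1 682 (null-labelled) and 1423 (wild type). The surfactant gene Sftpc read 2299 (null-labelled) and 1368 (wild type), 1.68-fold higher. Scgb1a1 and the airway factor Nkx2-1 were under the limit on both arrays, at 76.0 (null-labelled) and 306 (wild type), and at 160.4 (null-labelled) and 164 (wild type). The part of airway tissue in the members' values was not tested.

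Basal and squamous epithelium, which replaces the ciliated lining, was strongly present on both arrays. Of 11 measured markers, 2 were at least 2-fold lower and 0 higher, with a median of -0.17. Trp63, the basal cell factor, read 32742 on the null-labelled and 20777 on the wild-type array. Its other probe sets that reached the limit went both ways, with 1014 (null-labelled) and 1137 (wild type), and 578 (null-labelled) and 148 (wild type). Epcam read 38308 (null-labelled) and 24356 (wild type), with a second Epcam probe set going the other way. Sprr3, of the cornified envelope, read 3691 (null-labelled) and 10358 (wild type), and Krt14 2248 (null-labelled) and 5532 (wild type). Neurons, which carry primary and not motile cilia, had 4 of 8 measured markers at least 2-fold lower: Dcx, Nefl, Ret and Snap25. A second Nefl probe set was lower as well. A second Snap25 probe set went the other way, with 583 (null-labelled) and 436 (wild type). For Ret the second probe set had a log2 ratio of -0.02.

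**Figure D4:**
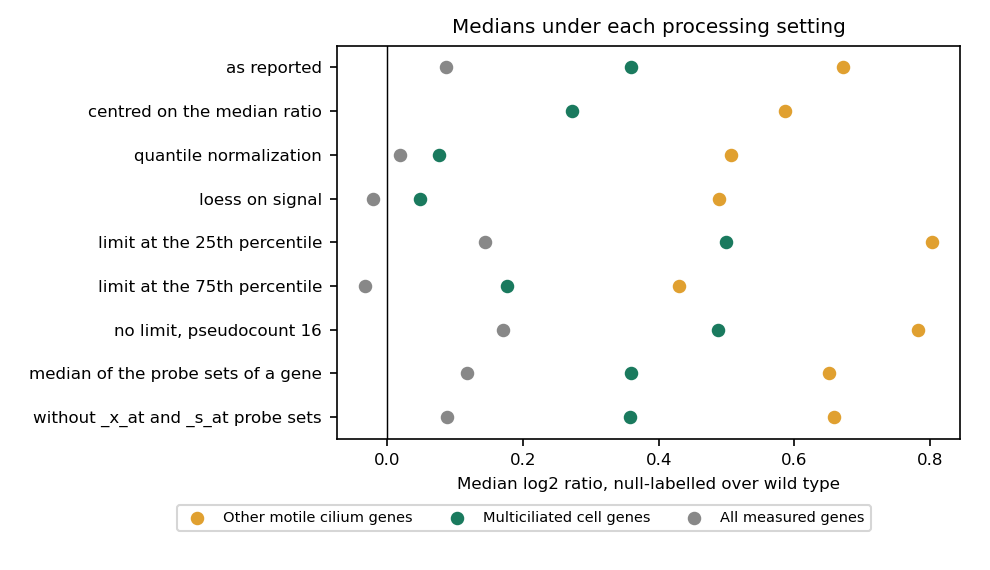
Median log2 ratio, null-labelled over wild type (horizontal), for other motile cilium genes (orange), multiciliated cell genes (green) and all measured genes (grey; 0 by construction after centring and not drawn) under each processing setting (rows). The green median ranges from 0.05 to 0.50 and the orange one from 0.43 to 0.80.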

How the data were processed

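Biotin-labelled cRNA from 6 µg of total RNA was hybridized to 1 array per genotype, per the labels' protocols. The authors deposited linear intensities, MAS5 signals per the submitters' processing notes, whose version and settings the sources used here do not give. Both arrays had a mean of 1500 after trimming 2% from each end.

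The 64 array controls were left out. Of 45101 probe sets, 34945 had 1 gene symbol in GEO's platform annotation, 932 several and 9160 none. Symbols were updated by Entrez ID through RefSeq (GRCm38.p6), which held 34741 of the 34945. Each gene is given by its probe set of highest mean signal. The limit, ratios and 2-fold rule are described with the results. The scripts were tested on simulated data.

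All members are named, as are up to 4 measured genes with the largest ratio in each other list. The members and lists were chosen with earlier results of these data known. Alternatives were centring, quantile normalization, loess (span 0.3), limits at the 25th and 75th percentile, the median over all probe sets of each gene, no limit (pseudocount 16), dropping probe sets ending in _x_at or _s_at, and a 4-fold threshold. The number of arrays limits the precision. Python 3.11.15, numpy 2.4.6, pandas 2.3.3 and statsmodels 0.14.6 were used.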

Additional observations from a re-analysis of the deposited data

How the results depend on the processing

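No paired analysis was possible because each genotype has 1 array, and no array could be left out for the same reason. A median counts here as moved when it shifts by more than the SD between probe sets divided by the square root of the number of genes. The main values were 4 members higher and 1 lower, with a median of 0.36. Centring gave 1 higher member, quantile normalization 2 and loess 2. Their medians were 0.077 with quantile normalization and 0.049 with loess. The limit at the 25th percentile gave 10 higher and 4 lower of 33 measured (median 0.50), that at the 75th 0 and 0 of 8 (median 0.18), and no limit 12 and 5 of 37 (median 0.49). Taking the median over each gene's probe sets gave 2 higher and 1 lower of 27. Dropping probe sets ending in _x_at or _s_at gave 3 higher and 1 lower of 26. No member passed 4-fold in either direction. Among all genes, 800 were higher and 714 lower of 13315 measured. In the same order, the counts were 2742 and 1232 of 16539 for a 25th percentile limit, and 148 and 383 of 7980 for a 75th. They were 3548 and 1704 of 18193 with no limit, and 21 and 142 of 13315 at 4-fold. Centring gave 612 higher and 831 lower of 13315, quantile normalization 546 and 804 of 13118, and loess 449 and 938 of 13098. The median over each gene's probe sets gave 608 and 538 of 13351, and dropping probe sets ending in _x_at or _s_at 772 and 678 of 12842. The median of all genes turned negative with loess (-0.021) and with the limit at the 75th percentile (-0.033).

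The other motile cilium genes, tried under the same settings after the data were seen, had 9 higher and 0 lower. They had 7 higher and 1 lower after centring (median 0.59), 5 and 1 with quantile normalization (0.51), 3 and 1 with loess (0.49), 20 and 2 for a 25th percentile limit (0.80), 1 and 0 for a 75th (0.43), 24 and 4 with no limit (0.78), and 0 higher at 4-fold. The cause of these shifts was not tested. Their median stayed above 0 in all 8 alternatives to scaling, limit and probe set choice, as did that of the members. For 15 of the 27 measured members the ratio is a bound, so its size is limited by the limit itself.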
